A study of Mus musculus with 4 samples.

Results

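Car2 and Car3 encode cytosolic carbonic anhydrases, and both genes were followed across 4 single-cell libraries of cultured mouse muscle stem cells. They are 2 of the 13772 genes measured, taken by name, and were chosen by their measured levels, the share of cells with each and the cells that carry them in these same libraries. Those values are therefore described and not tested. Carbonic anhydrases convert carbon dioxide and water into bicarbonate and a proton and back again, and so buffer acid and help carbon dioxide leave a cell. Car2 is the fast, widely expressed form, known from red blood cells, kidney and osteoclasts. Car3 is a much slower enzyme that is abundant in slow-twitch muscle fibres, fat and liver, and it carries reactive thiols that take part in the response to oxidants. In the RefSeq annotation of the mouse assembly GRCm38.p6, Car13, Car1, Car3 and Car2 follow one another as neighbouring protein-coding genes.

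The cells were muscle stem cells of wild-type C57BL/6 mice, labelled aged and young without an age in months. They were kept for 7 days in DMEM with 10% fetal bovine serum, penicillin and streptomycin on polydimethylsiloxane, an elastic silicone that was either stiff (29 kPa) or soft (12 kPa), then freed with trypsin and profiled by droplet-based 3' RNA sequencing. The groups were aged cells on stiff, aged cells on soft, young cells on stiff and young cells on soft substrate, with 1 library each. The sex and number of the mice were not given in the sources used. The study asked how substrate stiffness and RNA decay act on the fate of aged muscle stem cells. With 1 library per group there is no replicate spread. No test or p-value is therefore given, and a difference between conditions cannot be told apart from one between libraries. Intervals are 95% intervals that cover counting error only.

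After filtering, 1738 aged stiff, 1333 aged soft, 1479 young stiff and 1360 young soft cells were kept. Their median depth was between 28611 and 37081 unique molecular identifiers (UMIs, each standing for a captured RNA molecule). The libraries differed in makeup: cells above the pooled median of Mylpf, a fast myosin light chain that marks myocytes, made up 64.8% of aged stiff, 57.7% of aged soft, 38.4% of young stiff and 36.1% of young soft cells. Cells with under 1% mitochondrial counts numbered 109 in aged stiff, 83 in aged soft, 13 in young stiff and 21 in young soft. A cell barcode was shared in 1 case, by aged stiff and young soft. The 5 progenitor markers Pax7, Myf5, Cdh15, Vcam1 and Sdc4 and the 6 myocyte markers Acta1, Mylpf, Myl1, Ckm, Myh3 and Tnnt3 were found in every library.

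Car2 differed little between the libraries taken whole. Its mean level over cells was 46.6 CPM (a cell's UMIs scaled to the same total in every cell) in aged stiff, 52.1 CPM in aged soft, 42.8 CPM in young stiff and 49.6 CPM in young soft cells. By this mean the lowest level was in young stiff and the highest in aged soft cells, and at each age the stiff library was the lower. From summed UMIs over the library total the order differed, with an aged to young ratio of 0.967 on stiff and 0.919 on soft. Car2 was read from 2586 UMIs in aged stiff, 1982 in aged soft, 1723 in young stiff and 2286 in young soft cells.

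Car3 separated the libraries by age. Its mean level was 102.8 CPM in aged stiff, 83.2 CPM in aged soft, 361.6 CPM in young stiff and 397.3 CPM in young soft cells. Both aged libraries were low and both young libraries high, and the order of stiff and soft was opposite at the 2 ages. The UMIs behind these levels numbered 7069 in aged stiff, 3998 in aged soft, 17013 in young stiff and 23116 in young soft cells. Car2 and Car3 are read as tags from the ends of their transcripts, and their levels are not set against each other here.

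**Figure D1:**
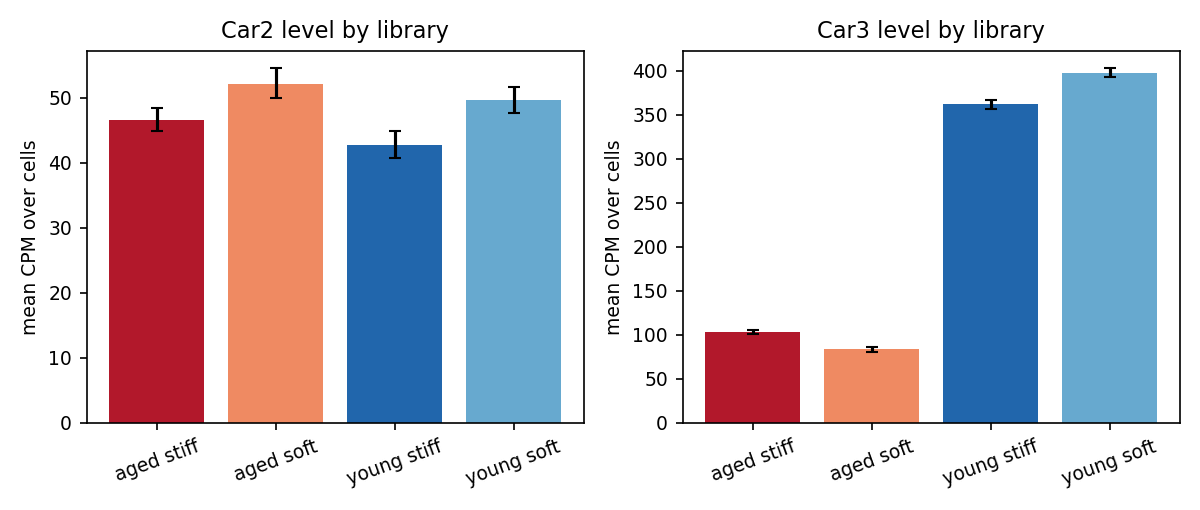
Mean level over cells (CPM) of Car2 (left) and Car3 (right) in the 4 libraries. Bars are means and error bars the exact Poisson interval of the summed UMIs, scaled to the mean. Car2 lies between 42.8 and 52.1 CPM in all 4 libraries, while Car3 is at 102.8 and 83.2 CPM in the aged libraries against 361.6 and 397.3 CPM in the young ones.

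At least 1 UMI of Car2 was found in 29.1% of aged stiff, 31.5% of aged soft, 30.2% of young stiff and 36.0% of young soft cells. Thinning every cell to 2000 UMIs, which removes differences in depth and left out no cell, brought these shares to 6.21% in aged stiff, 6.60% in aged soft, 6.90% in young stiff and 7.21% in young soft cells. The thinned shares of Car2 lay within each other's counting intervals. For Car3 the unthinned shares were 32.6% in aged stiff, 28.1% in aged soft, 38.8% in young stiff and 41.0% in young soft cells. The thinned shares were 9.84% (8.48 to 11.3%) in aged stiff, 7.88% (6.49 to 9.46%) in aged soft, 19.5% (17.5 to 21.7%) in young stiff and 19.2% (17.1 to 21.4%) in young soft cells. So the thinned share of Car3 was lower in both aged libraries than in both young ones, beyond counting error.

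Stray RNA was not measured separately, so its part in these shares was not tested. For scale, the shares at either end of Mylpf are given. Among the 10% of all cells lowest in Mylpf, a thinned Car3 UMI was found in 0 of 30 aged stiff cells, which allows a share of up to 11.6%, in 1.39% of aged soft, 0.664% of young stiff and 3.19% of young soft cells. Without thinning these shares were 3.33%, 8.33%, 10.3% and 11.2% for aged stiff, aged soft, young stiff and young soft, at median depths of 20888, 20280, 22977 and 30324 UMIs. Among the 10% highest in Mylpf, a thinned Car2 UMI was found in 0.704% of aged stiff, 0.515% of aged soft, 2.82% of young stiff and 0 of 42 young soft cells, which allows up to 8.41%. Without thinning these shares were 16.2%, 18.0%, 9.86% and 21.4% for aged stiff, aged soft, young stiff and young soft, at median depths of 44970, 43125.5, 32936 and 41759.5 UMIs. In the 10% highest in Mylpf, a thinned Car3 UMI was found in 9.51% of aged stiff, 9.79% of aged soft, 36.6% of young stiff and 35.7% of young soft cells. These shares are above those of the cells lowest in Mylpf in each library, although the limit from 30 aged stiff cells does not exclude a like share there.

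Car2 was highest in cells with little Mylpf and much Myog. When all cells were ordered by Mylpf and cut into deciles, Car2 peaked in decile 4 in each of the 4 libraries, where Mylpf lay between 177 and 2744 CPM. The peak was 210.4 CPM in aged stiff, 224.9 CPM in aged soft, 157.1 CPM in young stiff and 162.0 CPM in young soft cells. A thinned Car2 UMI was found there in 23.7% of aged stiff, 25.4% of aged soft, 23.4% of young stiff and 23.1% of young soft cells. Without thinning it was found in 67.8% of aged stiff, 73.8% of aged soft, 66.9% of young stiff and 79.0% of young soft cells. Decile 4 also held high Myog, the transcription factor of terminal muscle differentiation (mean 3201 CPM), and the highest mean Cdkn1c of the 10, a cyclin-dependent kinase inhibitor that marks cell cycle exit (345.0 CPM). It supplied 43.7% of all Car2 UMIs in aged stiff, 36.4% in aged soft, 38.0% in young stiff and 33.1% in young soft cells. Decile 5 was close to it in both markers, with a mean of 3309 CPM of Myog and 329.5 CPM of Cdkn1c, but held less Car2.

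In decile 5 Car2 had fallen to 80.3 CPM in aged stiff and 76.6 CPM in aged soft cells. In young cells it was at 47.5 CPM on stiff and 58.8 CPM on soft there. Past that decile Car2 was low. In the 5 deciles highest in Mylpf its mean lay between 3.95 and 16.1 CPM in aged stiff, 5.76 and 20.3 CPM in aged soft, 3.33 and 7.71 CPM in young stiff, and 6.86 and 11.2 CPM in young soft cells. Below the peak, in decile 1, Car2 was at 60.1 CPM in aged stiff, 36.2 CPM in aged soft, 40.4 CPM in young stiff and 41.5 CPM in young soft cells. So in all 4 libraries Car2 had a moderate level at low Mylpf and a peak in decile 4. It fell in decile 5, to a level still above that of decile 1, and was low after it.

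Car3 was high in the deciles past decile 5, where Car2 was low, and already in decile 5, where Car2 was not yet low. It was low in decile 1, at 1.54 CPM in aged stiff, 8.35 CPM in aged soft, 8.604 CPM in young stiff and 11.6 CPM in young soft cells. From decile 5 on it lay between 91.6 and 203.3 CPM in aged stiff and between 59.1 and 228.1 CPM in aged soft cells. In the same deciles it lay between 507.5 and 886.3 CPM in young stiff and between 601.7 and 1168 CPM in young soft cells. No aged value in these deciles reached a young one. The young libraries already parted from the aged ones at the Car2 peak, in decile 4, where Car3 was at 33.1 CPM in aged stiff and 10.8 CPM in aged soft cells, against 130.9 CPM in young stiff and 127.7 CPM in young soft cells.

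**Figure D2:**
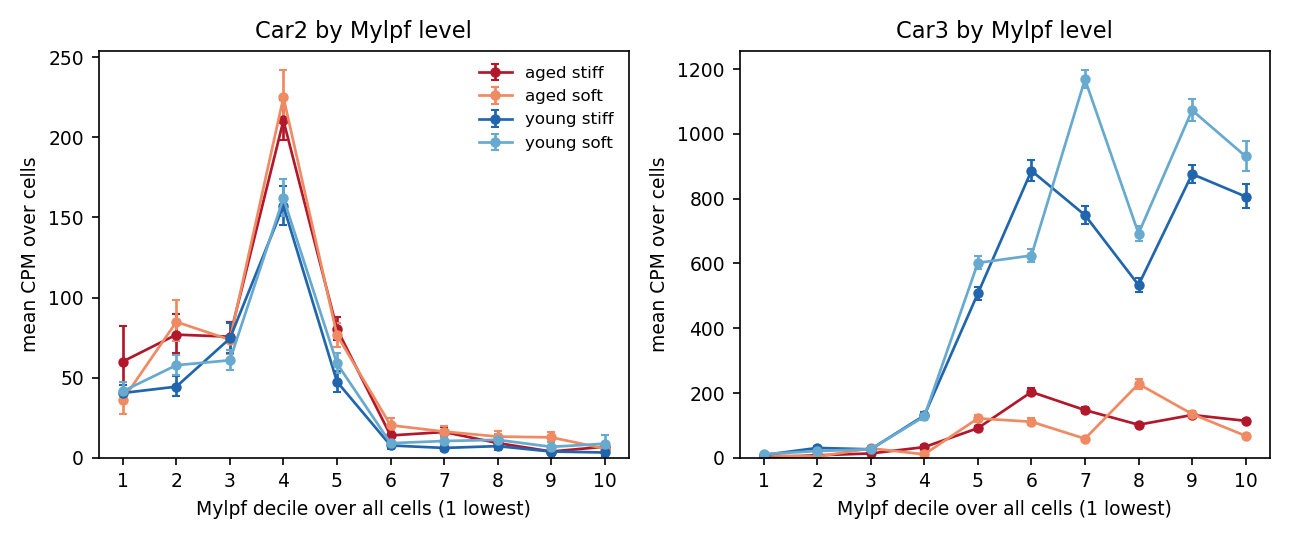
Mean level (CPM) of Car2 (left) and Car3 (right) in cells ordered by Mylpf and cut into deciles over all 4 libraries, from lowest to highest. Points are means of the cells of 1 library in that decile, and error bars are scaled exact Poisson intervals. Car2 peaks in decile 4 in every library, and Car3 climbs from decile 5 on to above 500 CPM in the young libraries while the aged libraries stay under 230 CPM.

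Crossing Mylpf with Myog and Cdkn1c sharpened this picture. Cells were split at the pooled medians into Mylpf-low and Myog-low cells, Mylpf-low and Myog-high cells, and Mylpf-high cells with or without a Cdkn1c UMI. These are ranges and not cell types, and 835 of the cells lay within 0.5 log2 units of the Mylpf cut. The Mylpf-low, Myog-high range, which corresponds to committed cells not yet rich in myosin, made up 15.5% of aged stiff, 16.5% of aged soft, 17.4% of young stiff and 18.2% of young soft cells. It held 65.5% of the Car2 UMIs in aged stiff, 63.7% in aged soft, 56.8% in young stiff and 55.2% in young soft cells. Car2 stood there at 202.7 CPM in aged stiff, 205.5 CPM in aged soft, 138.3 CPM in young stiff and 145.6 CPM in young soft cells. Both aged libraries were thus above both young ones in this range.

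In Mylpf-low, Myog-low cells Car2 was at 46.7 CPM in aged stiff, 41.1 CPM in aged soft, 37.0 CPM in young stiff and 42.9 CPM in young soft cells. Those cells made up 19.7% of aged stiff, 25.8% of aged soft, 44.2% of young stiff and 45.7% of young soft cells, and so supplied more of the Car2 UMIs in young libraries, 36.4% in young stiff and 36.2% in young soft, than in aged ones, 16.1% in aged stiff and 16.4% in aged soft. Within them, cells with a UMI of Mki67, a marker of dividing cells, had 57.8 CPM of Car2 in aged stiff, 41.1 CPM in aged soft, 40.6 CPM in young stiff and 46.9 CPM in young soft. Cells without Mki67 had 41.9 CPM in aged stiff, 41.0 CPM in aged soft, 33.8 CPM in young stiff and 38.8 CPM in young soft. Car2 was thus found with and without Mki67 in this range, with the widest gap in aged stiff. Over the whole libraries, the 5 markers of proliferating cells summed to 447.1 CPM in aged stiff, 223.9 CPM in aged soft, 1248 CPM in young stiff and 1182 CPM in young soft cells among the 10% highest in Car2, against 164.0, 226.1, 654.0 and 650.0 CPM in all aged stiff, aged soft, young stiff and young soft cells. These markers were thus higher in cells with most Car2 in all libraries but aged soft.

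Car2 was higher at high Cdkn1c, but not at every step. Over all cells, Car2 was at 34.7 CPM in aged stiff, 41.7 CPM in aged soft, 37.7 CPM in young stiff and 41.2 CPM in young soft cells without a Cdkn1c UMI. In the quintile of Cdkn1c-containing cells lowest in it, Car2 was below that, at 27.6 CPM in aged stiff, 16.3 CPM in aged soft, 27.2 CPM in young stiff and 32.0 CPM in young soft cells. In the quintile highest in it, Car2 was at 109.0 CPM in aged stiff, 131.0 CPM in aged soft, 105.8 CPM in young stiff and 124.0 CPM in young soft cells, and in aged stiff quintile 4 was higher still, at 128.4 CPM. Within the Mylpf-low, Myog-high range the step was smaller: cells with Cdkn1c had 255.2 CPM of Car2 in aged stiff, 223.8 CPM in aged soft, 140.5 CPM in young stiff and 170.0 CPM in young soft, and cells without it had 169.1 CPM in aged stiff, 192.7 CPM in aged soft, 137.1 CPM in young stiff and 128.8 CPM in young soft. In young stiff cells the levels with and without Cdkn1c were nearly equal. By Myog, Car2 was highest in the top quintile of Myog-containing cells of each library, at 169.7 CPM in aged stiff, 158.0 CPM in aged soft, 93.5 CPM in young stiff and 134.4 CPM in young soft.

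Car3 was carried mostly by Mylpf-high cells without Cdkn1c. In Mylpf-high cells lacking a Cdkn1c UMI it stood at 153.9 CPM in aged stiff, 127.9 CPM in aged soft, 783.7 CPM in young stiff and 936.5 CPM in young soft cells. That range held 78.4% of the Car3 UMIs in aged stiff, 69.9% in aged soft, 67.3% in young stiff and 66.7% in young soft cells, from 51.9%, 44.9%, 31.4% and 28.6% of the cells of aged stiff, aged soft, young stiff and young soft. So a larger share of aged cells lay in the range that carries Car3, while the aged level within it was the lower.

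The other ranges held less Car3. Mylpf-high cells with Cdkn1c had 68.5 CPM in aged stiff, 65.5 CPM in aged soft, 654.7 CPM in young stiff and 629.5 CPM in young soft. Mylpf-low, Myog-high cells had 52.8 CPM in aged stiff, 44.7 CPM in aged soft, 294.3 CPM in young stiff and 342.5 CPM in young soft. Mylpf-low, Myog-low cells had 29.7 CPM in aged stiff, 39.0 CPM in aged soft, 41.4 CPM in young stiff and 43.2 CPM in young soft. Over this range as a whole the gap between aged and young was thus small. In that last range Car3 was higher in the cells with no UMI of Pax7, the gene of the stem cell state: 113.0 CPM in aged stiff, 150.6 CPM in aged soft, 244.7 CPM in young stiff and 241.9 CPM in young soft, against 13.1, 14.5, 16.6 and 27.3 CPM in the aged stiff, aged soft, young stiff and young soft cells with Pax7. The cells without Pax7 numbered 57 in aged stiff, 62 in aged soft, 71 in young stiff and 46 in young soft. With and without Pax7, the aged level was below the young one on each substrate.

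Among Mylpf-high cells Car3 was higher where Myog was low, at 192.1 CPM in aged stiff, 139.3 CPM in aged soft, 1175 CPM in young stiff and 1448 CPM in young soft, than where it was high, at 96.3 CPM in aged stiff, 99.5 CPM in aged soft, 629.7 CPM in young stiff and 723.7 CPM in young soft. Over all cells, Car3 was low in those with no Myog, between 6.99 and 12.0 CPM over the 4 libraries, and highest in quintile 2 or 3 of Myog-containing cells. There it reached 162.2 CPM in aged stiff, 162.8 CPM in aged soft, 908.7 CPM in young stiff and 1070 CPM in young soft cells. In the quintile with most Myog it was back to 52.4 CPM in aged stiff, 35.5 CPM in aged soft, 279.7 CPM in young stiff and 193.1 CPM in young soft cells, the same cells in which Car2 was highest. In the quintile with most Cdkn1c, Car3 was at 14.5 CPM in aged stiff, 14.8 CPM in aged soft, 215.1 CPM in young stiff and 187.8 CPM in young soft cells.

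**Figure D3:**
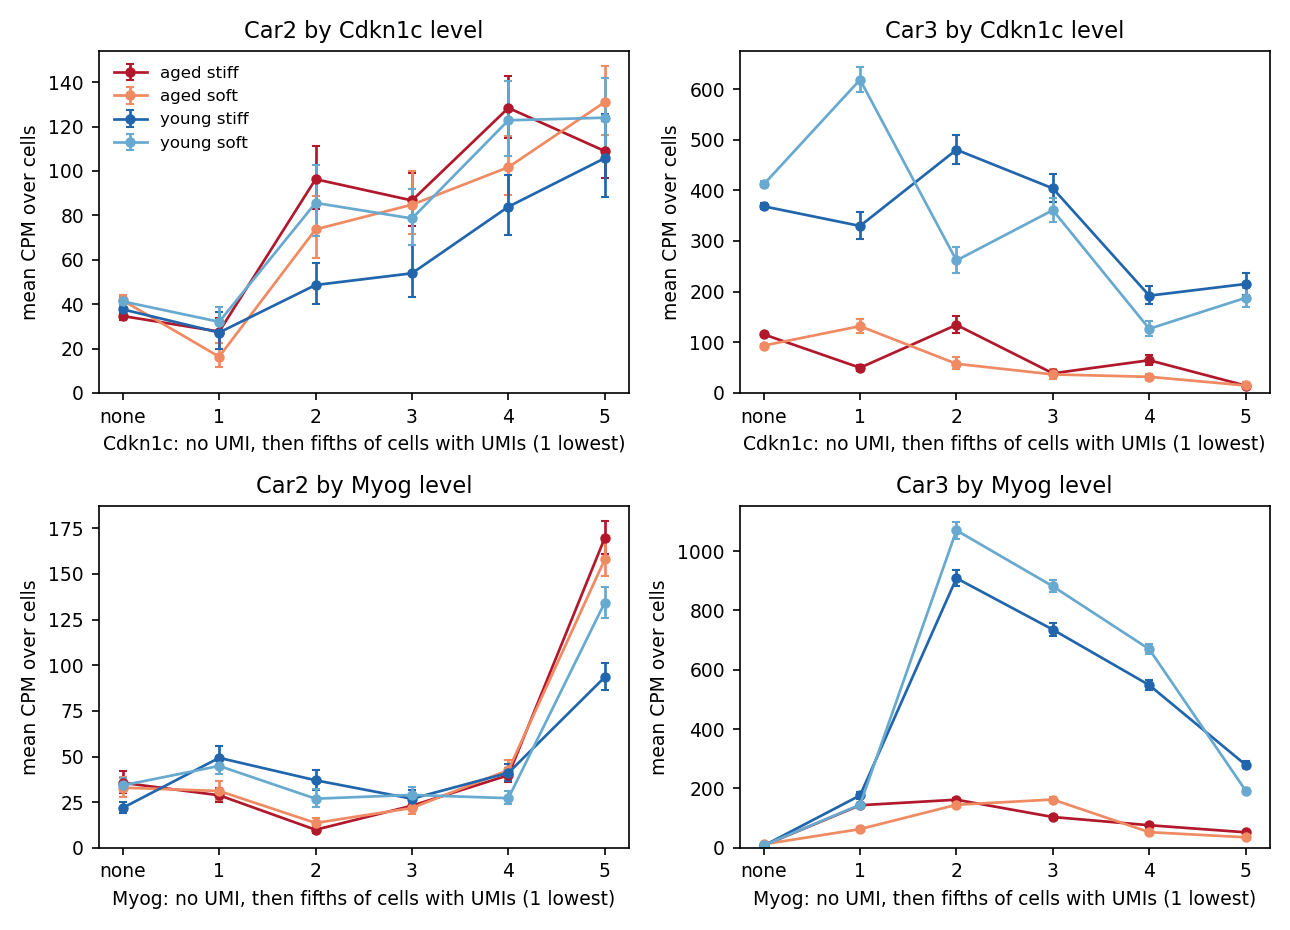
Mean level (CPM) of Car2 (left column) and Car3 (right column) by the cell's Cdkn1c (top row) or Myog (bottom row), in cells with no UMI and then in quintiles of the cells with UMIs, cut over all 4 libraries. Error bars are scaled exact Poisson intervals. Car2 is highest at high Cdkn1c and in the top quintile of Myog, where it is at 93.5 to 169.7 CPM, and Car3 is highest at intermediate Myog, where young stiff and young soft reach 908.7 and 1070 CPM.

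Of the 10% of cells highest in each gene, 11 of 173 were shared in aged stiff, 8 of 133 in aged soft, 8 of 147 in young stiff and 6 of 136 in young soft cells. For unrelated genes 10% of them would be shared, and fewer were in each library. UMIs of both genes were found in 7.54% of aged stiff, 7.58% of aged soft, 11.7% of young stiff and 14.9% of young soft cells. Such shares also depend on the share of cells with each gene, which for Car3 was higher in both young libraries. Of the 10% of cells highest in Car2, 26.0% in aged stiff and 20.3% in aged soft had a Car3 UMI, below the shares over all cells of 32.6% in aged stiff and 28.1% in aged soft. In the young libraries these shares were above those over all cells, at 43.5% against 38.8% in young stiff and 50% against 41.0% in young soft. Spearman's rho between Car2 and Car3 across cells was -0.10 in aged stiff, -0.07 in aged soft, -0.04 in young stiff and -0.01 in young soft (1738, 1333, 1479 and 1360 cells of the same 4 libraries, each sharing 1 library and unequal depths). With Mylpf, rho was -0.39, -0.30, -0.24 and -0.19 for Car2 and 0.18, 0.22, 0.47 and 0.47 for Car3 in aged stiff, aged soft, young stiff and young soft. So both genes tracked the myosin gene in opposite directions in each library, without a strong relation to each other.

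Both genes were uneven among cells. The 10% of cells with most Car2 held 80.7% of it in aged stiff, 76.9% in aged soft, 73.4% in young stiff and 71.3% in young soft. For Car3 the top 10% held 83.7% in aged stiff, 88.5% in aged soft, 76.7% in young stiff and 79.7% in young soft. The single highest cell had 5212 CPM of Car3 in aged stiff, 11465 CPM in aged soft, 10478 CPM in young stiff and 15438 CPM in young soft, so that high Car3 cells occurred in all 4 libraries. In aged soft the top 1% of cells alone held 39.6% of the Car3, against 26.4% in aged stiff, 20.5% in young stiff and 23.6% in young soft.

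The comparison of aged with young cells asks what differs with donor age on the same substrate. On stiff substrate Car3 was 1.77 log2 units lower in aged cells, and on soft 2.19 log2 units lower; log2 ratios here are of mean CPM plus 5, which understates low genes. The ratio of summed UMIs, aged to young, was 0.268 (0.260 to 0.275) on stiff and 0.183 (0.177 to 0.190) on soft. Of both members, only Car3 was at least 2 times lower in aged cells, where 3.79% of 6047 genes on stiff and 2.77% of 6147 genes on soft were, counting genes that reached 20 CPM in 1 or both of the libraries compared. It ranked number 12 from the lowest on stiff and number 4 on soft. Since Car3 was chosen for such values, nothing is read from its rank. The comparisons on stiff and on soft share no library with each other, but each shares its libraries with the stiffness comparisons below.

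Car2 did not have a stable sign with age over the whole libraries: its log2 ratio, aged over young, was 0.11 on stiff and 0.07 on soft from means over cells, but -0.04 on stiff and -0.11 on soft from summed UMIs. It passed neither fold, where 3.32% of genes on stiff and 2.96% on soft were at least 1.5 times higher. Within the Mylpf-low, Myog-high range the aged level was higher by both measures, with a UMI ratio of 1.49 (1.38 to 1.62) on stiff and 1.45 (1.34 to 1.57) on soft. The log2 ratios there were 0.54 on stiff and 0.48 on soft, under the 1.5-fold mark that 1.93% of genes on stiff and 2.39% on soft passed upwards in these cells. In Mylpf-low, Myog-low cells the UMI ratio was 1.19 (1.05 to 1.35) on stiff and 0.866 (0.760 to 0.986) on soft, so the direction differed between substrates.

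Within Mylpf-high cells Car3 was further apart between the ages than over the whole libraries. It averaged 136.9 CPM in 1127 aged stiff and 114.0 CPM in 769 aged soft cells, against 760.3 CPM in 568 young stiff and 872.7 CPM in 491 young soft cells. The log2 ratio, aged over young, was -2.43 on stiff and -2.88 on soft, and the UMI ratio 0.176 (0.171 to 0.182) on stiff and 0.116 (0.112 to 0.121) on soft. No other gene that reached 20 CPM had a lower log2 ratio in these cells, of 5242 on stiff and 5352 on soft, which is again a description of the values Car3 was chosen by. In the same cells 0.992% of genes on stiff and 1.16% on soft were at least 2 times lower in the aged. With each decile of Mylpf given the same weight in all libraries, Car3 was at 84.7 CPM in aged stiff, 77.6 CPM in aged soft, 455.5 CPM in young stiff and 527.7 CPM in young soft.

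Mylpf-low, Myog-high cells gave a like picture, with a log2 ratio of -2.37 on stiff and -2.81 on soft, again the lowest of the 5901 and 5936 genes compared on stiff and soft, of which 0.373% and 0.691% were at least 2 times lower. The age gap in Mylpf-high cells was present at low and at high levels of Car3. After thinning, Car3 was found in 12.4% (10.6 to 14.5%) of aged stiff, 9.75% (7.75 to 12.1%) of aged soft, 37.3% (33.3 to 41.4%) of young stiff and 36.9% (32.6 to 41.3%) of young soft Mylpf-high cells. Without thinning these shares were 39.6% in aged stiff, 35.2% in aged soft, 61.3% in young stiff and 63.5% in young soft, at median depths between 32697 and 41112 UMIs. Cells with at least 1000 CPM of Car3 numbered 39 in aged stiff (3.46%), 19 in aged soft (2.47%), 131 in young stiff (23.1%) and 114 in young soft (23.2%). Cells with at least 100 CPM made up 19.4% in aged stiff, 16.3% in aged soft, 48.8% in young stiff and 48.3% in young soft. Each threshold was passed by a smaller share of cells in both aged libraries than in both young ones.

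**Figure D4:**
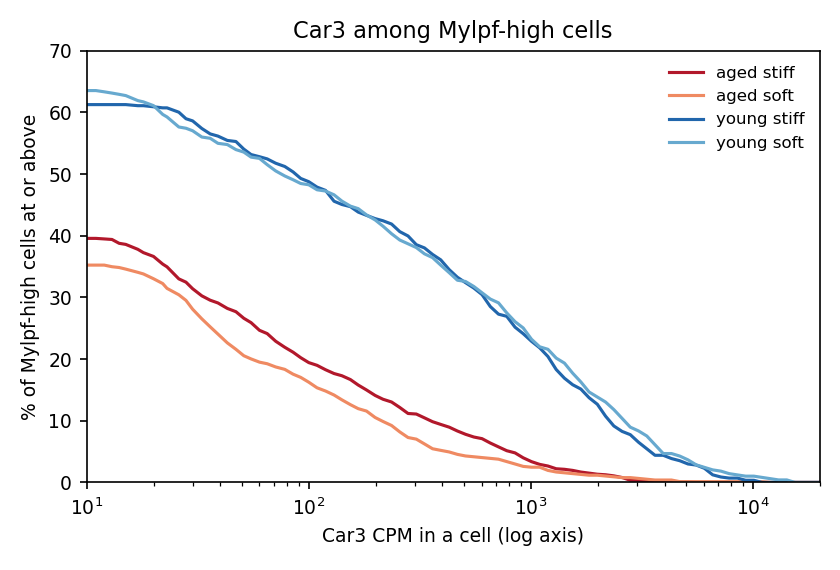
Share of Mylpf-high cells (in %) at or above a given Car3 level (CPM, log axis) in each library. Each line is the cells of 1 library. At 1000 CPM the lines stand at 3.46% in aged stiff and 2.47% in aged soft, against 23.1% in young stiff and 23.2% in young soft cells.

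The comparison of stiff with soft substrate asks what the substrate changes within an age. Car2 was lower on stiff at both ages, with a log2 ratio of -0.15 and a UMI ratio of 0.908 (0.857 to 0.964) in aged cells and a log2 ratio of -0.19 and a UMI ratio of 0.863 (0.811 to 0.920) in young cells. Neither reached 1.5 times, where 0.0901% of 5552 genes in aged and 0.149% of 6034 genes in young cells were at least that much lower. In aged cells the log2 ratio of Car2 was -0.03 with equal weight on each decile of Mylpf, 0.03 with equal weight on quintiles of Myog and 0.04 after thinning, which left a Car2 UMI in only 108 aged stiff and 88 aged soft cells. In the Mylpf-low, Myog-high range that holds most Car2, the UMI ratio of stiff to soft was 0.960 (0.892 to 1.03) in aged and 0.932 (0.856 to 1.01) in young cells.

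Car3 was higher on stiff in aged cells, with a log2 ratio of 0.29 and a UMI ratio of 1.23 (1.18 to 1.28). In young cells it was lower on stiff, with a log2 ratio of -0.13 and a UMI ratio of 0.843 (0.827 to 0.860). Neither passed 1.5-fold, where 0.126% of genes in aged cells were higher and 0.149% in young cells lower. The direction was not stable along Mylpf. In aged cells the UMI ratio was 2.23 (1.97 to 2.53) in decile 7 and 0.571 (0.521 to 0.626) in decile 8. In young cells it was 1.35 (1.29 to 1.42) in decile 6 and 0.536 (0.513 to 0.559) in decile 7. These intervals do not cover the spread among cells, and few cells held much of the Car3. In aged soft the top 1% of cells held 39.6% of it. The part of single cells in the changes between deciles was not tested. The aged value moved with a few cells of the aged soft library: cells with under 1% mitochondrial counts were 6.23% of aged soft cells and held 24.9% of their Car3 UMIs, against 6.27% of the cells and 11.2% of the UMIs in aged stiff. Without such cells the aged log2 ratio was 0.56, and without the 1% of cells highest in Car3 it was 0.55.

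**Figure D5:**
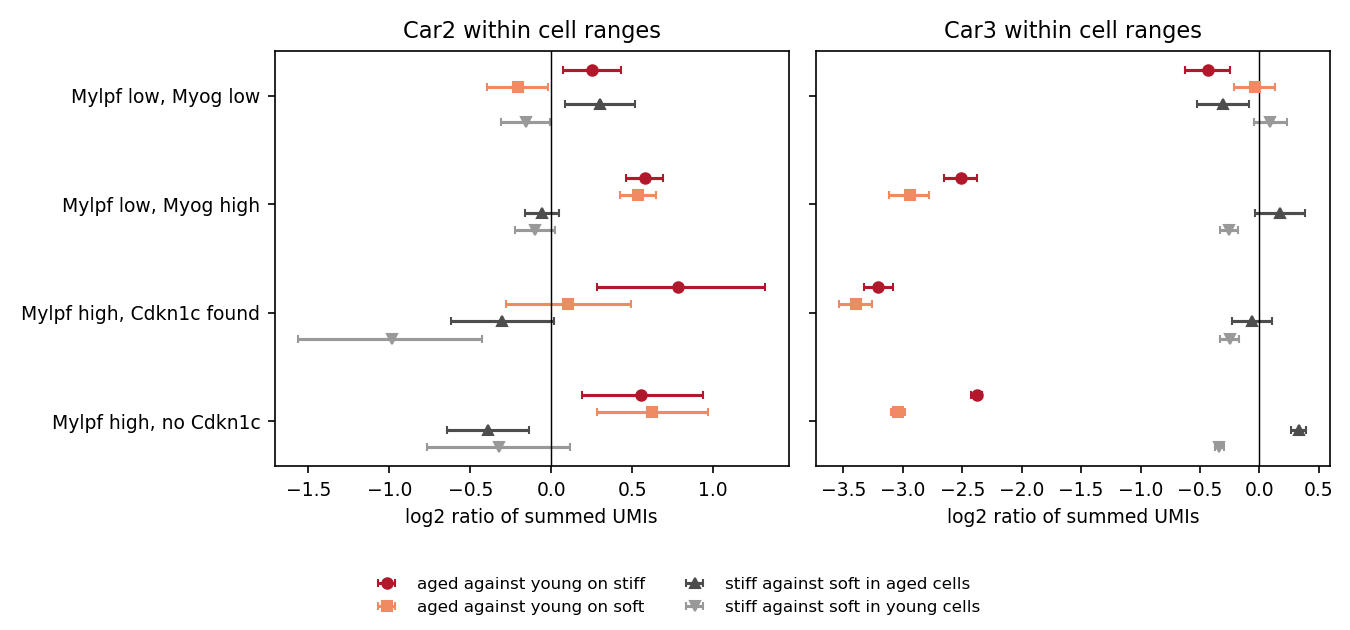
Log2 ratio of summed UMIs of Car2 (left) and Car3 (right) within 4 ranges of cells, for the age comparisons on each substrate and the stiffness comparisons at each age, with the exact conditional binomial interval. Car3 is lower in aged cells in the 3 ranges with Mylpf or Myog high, with UMI ratios between 0.0951 and 0.193, while Car2 in Mylpf-low, Myog-high cells is higher in aged cells, with ratios of 1.49 on stiff and 1.45 on soft.

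Other carbonic anhydrases were scarce. Of the 16 family members listed, 9 were among the genes measured and only Car2, Car3 and Car13 reached 20 CPM in a library. Car13, another cytosolic form, averaged 22.0 CPM in aged stiff, 22.5 CPM in aged soft, 28.4 CPM in young stiff and 29.0 CPM in young soft cells. Its UMI ratio, aged to young, was 0.694 (0.641 to 0.752) on stiff and 0.682 (0.627 to 0.742) on soft. Car13 was highest in Mylpf-low, Myog-low cells, at 47.0 CPM in aged stiff, 44.8 CPM in aged soft, 42.1 CPM in young stiff and 39.95 CPM in young soft. The other 6 measured members, Car5b, Car7, Car8, Car9, Car11 and Car12, stayed under 2.5 CPM in every library.

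Genes that vary across cells as each enzyme does were named by their Pearson r, averaged over the 4 libraries and taken over 6086 genes. These r come from cells that share a library and differ in depth. Closest to Car2 were Purb (r = 0.43), Ppp1r14b (0.43), Spats2l (0.42), Tgfb2 (0.41), Npm1 (0.41), Rpl3 (0.39), Marcksl1 (0.38) and Myl9 (0.37). Among them, Purb encodes a DNA and RNA binding protein, Npm1 a nucleolar protein, Rpl3 a ribosomal protein and Tgfb2 a secreted growth factor. The lowest were Casq1 (-0.42), the calcium-storing protein of fast fibres, Fabp3 (-0.41), a fatty acid carrier, the noncoding Srrm4os (-0.41) and Tcap (-0.40), a sarcomere protein.

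Closest to Car3 were Igfn1 (0.43), Srrm4os (0.43), Hspb7 (0.43), Casq1 (0.42), Mb (0.41), Fhl1 (0.41), Xirp2 (0.40) and Neurl1a (0.40). Igfn1 and Xirp2 encode sarcomere-associated proteins, Hspb7 a small heat shock protein of muscle, Mb the oxygen carrier myoglobin and Fhl1 a LIM-domain protein of muscle. The lowest were the tetraspanins Cd63 (-0.42) and Cd9 (-0.39), the prolyl isomerase Ppia (-0.41) and Rpl3 (-0.38). Several of these genes were not lower in the aged libraries as Car3 was. Igfn1 averaged 395.0 CPM in aged stiff, 330.8 CPM in aged soft, 261.0 CPM in young stiff and 239.3 CPM in young soft cells. Mb averaged 4783 CPM in aged stiff, 4008 CPM in aged soft, 3291 CPM in young stiff and 2765 CPM in young soft cells. Car3 thus went with Igfn1 and Mb from cell to cell and was low in the libraries where these were high. Among Mylpf-high cells alone, 1 of the 8 genes closest to Car2 and 3 of the 8 closest to Car3 were again among the closest. Within Mylpf-high cells the log2 ratio, aged over young, was 0.03 on stiff and -0.05 on soft for Igfn1, -0.11 on stiff and -0.04 on soft for Mb, and -0.16 on stiff and -0.12 on soft for Fhl1, against -2.43 and -2.88 for Car3 on stiff and soft. Xirp2 and Neurl1a were lower in aged Mylpf-high cells, with -0.57 on stiff and -0.76 on soft for Xirp2 and -0.39 on stiff and -0.18 on soft for Neurl1a, while Casq1 was higher, with 0.47 on stiff and 0.66 on soft. Over whole libraries Xirp2 was at 149.8 CPM in aged stiff, 115.6 CPM in aged soft, 133.8 CPM in young stiff and 126.7 CPM in young soft cells.

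Among the slow fibre genes, 13 of the 15 listed reached 20 CPM in the age comparisons. In aged cells 5 were higher by 1.5 times or more and 2 lower by as much, on each substrate, beside 3.32% higher and 12.2% lower of all genes on stiff and 2.96% and 10.7% on soft. The median log2 ratio of the list was 0.47 on stiff and 0.49 on soft, against -0.13 and -0.12 over all genes on stiff and soft. The 2 lower genes were Myh7 and Myl2, the slow and cardiac regulatory myosin light chain. Myh7 averaged 83.2 CPM in aged stiff, 62.6 CPM in aged soft, 149.9 CPM in young stiff and 170.1 CPM in young soft cells. Myl2 averaged 16.2 CPM in aged stiff, 14.8 CPM in aged soft, 53.3 CPM in young stiff and 50.6 CPM in young soft cells. Both genes were thus low in the aged libraries, as Car3 was. Within a library they did not both follow Car3 from cell to cell. The 10% of cells highest in Car3 were set against the other Mylpf-high cells. The log2 ratio of Myh7 was 0.05 in aged stiff, -0.72 in aged soft, -0.35 in young stiff and -0.20 in young soft. For Myl2 it was -0.61 in aged stiff, 0.05 in aged soft, 0.13 in young stiff and 1.18 in young soft.

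The gap in the slow myosin genes was larger within Mylpf-high cells, where the log2 ratio, aged over young, was -1.48 on stiff and -1.99 on soft for Myh7 and -2.27 on stiff and -2.12 on soft for Myl2. Other slow genes went the other way over whole libraries, such as the slow troponin Tnnt1 (1.02 on stiff, 0.97 on soft) and the tropomyosin Tpm3 (1.19 on stiff, 1.09 on soft). Of the fast fibre genes, 11 of the 15 listed reached 20 CPM. In aged cells 10 were at least 1.5 times higher on each substrate, beside 3.32% of all genes on stiff and 2.96% on soft. Among them were Tnni2, the fast troponin I (1.27 on stiff, 1.25 on soft), and Casq1 (1.10 on stiff, 1.17 on soft). Within Mylpf-high cells the slow list lay near all genes, with a median log2 ratio of -0.11 on stiff and -0.11 on soft. The median of all genes in these cells was -0.05 on stiff and -0.06 on soft. On each substrate 5 slow genes were above and 8 below 0, and 1 was higher by 1.5 times or more. Lower by as much were 2 on stiff and 3 on soft. The fast list stayed above 0 there, with a median log2 ratio of 0.31 on stiff and 0.28 on soft and 3 of 12 genes on stiff and 4 of 12 on soft higher by 1.5 times or more. That list includes Mylpf, the gene by which these cells were cut. In those cells 2.54% of all genes on stiff and 3.08% on soft were that much higher, and 4.04% on stiff and 5.59% on soft that much lower.

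Of 20 genes that work beside carbonic anhydrases in acid and bicarbonate transport, 9 reached 20 CPM, and 7 of these had log2 ratios below 0 in aged cells on each substrate. So had at least 63.4% of all genes on stiff and 62.2% on soft. Of the 9, 0 were higher and 2 lower by 1.5 times or more on each substrate, beside 12.2% of all genes lower on stiff and 10.7% on soft. The list median was -0.32 on stiff and -0.31 on soft, against -0.13 and -0.12 over all genes on stiff and soft. The 2 were Emb, a partner protein of lactate carriers, at 21.2 CPM in aged stiff, 20.999 CPM in aged soft, 40.5 CPM in young stiff and 42.4 CPM in young soft cells, and Slc4a7, a sodium and bicarbonate cotransporter, at 41.8 CPM in aged stiff, 46.9 CPM in aged soft, 66.7 CPM in young stiff and 75.8 CPM in young soft cells. Slc4a3, an anion exchanger, went the other way but did not pass the fold on either substrate. It was at 94.98 CPM in aged stiff, 84.2 CPM in aged soft, 66.6 CPM in young stiff and 56.0 CPM in young soft cells. Within Mylpf-high cells the log2 ratio of Slc4a7, aged over young, was -0.613 on stiff and -0.694 on soft. For Emb, under 20 CPM in these cells, it was 0.0877 on stiff and -0.268 on soft. For Slc4a3 it was -0.0757 on stiff and 0.0781 on soft. The gap of Slc4a7 was thus also present in these cells, while the signs of Emb and Slc4a3 differed between substrates.

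Of the 20 genes of thiol and oxidant defence, 19 reached 20 CPM in the age comparisons. In aged cells 1 on stiff and 2 on soft were higher by 1.5 times or more, and 3 on stiff and 2 on soft lower by as much. Of all genes 3.32% on stiff and 2.96% on soft were that much higher, and 12.2% on stiff and 10.7% on soft that much lower. Gpx3, a secreted glutathione peroxidase, averaged 1292 CPM in aged stiff, 1320 CPM in aged soft, 484.4 CPM in young stiff and 420.7 CPM in young soft cells. Hmox1, the haem-degrading oxygenase, averaged 84.7 CPM in aged stiff, 89.6 CPM in aged soft, 161.2 CPM in young stiff and 153.1 CPM in young soft cells. Within Mylpf-high cells the log2 ratio of Hmox1, aged over young, was -0.105 on stiff and 0.193 on soft. For Gpx3 it was 1.74 on stiff and 2.04 on soft there. The gap of Gpx3 was thus also present in these cells, while the sign of Hmox1 differed between substrates. Over whole libraries the list, with a median log2 ratio of -0.12 on stiff and -0.05 on soft, lay near the median of all genes. Of 10 commitment genes, 3 on stiff and 2 on soft were at least 1.5 times higher in aged cells, beside the same shares of all genes, among them Mymx, which encodes a fusion peptide, with log2 ratios of 1.27 on stiff and 1.33 on soft. In both stiffness comparisons no member of the slow, fast, acid-base, oxidant or commitment lists was higher or lower by 1.5 times. Of all genes 0.126% in aged and 0.0166% in young cells were that much higher on stiff. That much lower were 0.0901% in aged and 0.149% in young cells, so few genes of any kind passed.

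Markers of other cell types were read where the tables hold them. None of the 6 red blood cell and 3 liver markers was among the genes measured, so nothing can be said of these cells, and of the 7 adipocyte markers 4 were. Their summed level was 44.0 CPM in aged stiff, 45.2 CPM in aged soft, 91.6 CPM in young stiff and 91.4 CPM in young soft cells, mostly of Lpl, which muscle cells also make, so it moved with age as Car3 did. In the 10% of cells highest in Car3 the sum was 15.3 CPM in aged stiff, 12.8 CPM in aged soft, 24.8 CPM in young stiff and 28.8 CPM in young soft. The 7 osteoclast and macrophage markers summed to between 1.83 and 3.54 CPM, with Ptprc and Tyrobp at 0 in both young libraries and Adgre1 at 0 in young soft. Schwann cell and other glial markers (4 of 5 measured) summed to between 1.80 and 2.91 CPM and endothelial ones (2 of 4) to at most 0.167 CPM, with Kdr at 0 in both young libraries. Fibro-adipogenic markers (4 of 5) summed to 34.3 CPM in aged stiff, 60.7 CPM in aged soft, 21.3 CPM in young stiff and 17.2 CPM in young soft cells, nearly all Ly6a, and smooth muscle and pericyte markers (3 of 4) to 13.7 CPM in aged stiff, 21.7 CPM in aged soft, 32.4 CPM in young stiff and 29.98 CPM in young soft cells. Their part in the levels of Car2 and Car3 was not tested.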

How the data were processed

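The deposited tables held log2 values per cell, and undoing the log showed them to be log2(CPM + 1), since every cell then summed to between 999995 and 1000010 over the 13772 genes. The CPM that the authors deposited in this form came from a droplet-based 3' kit, per the labels' protocols. Per the submitters' processing notes the tools were Cell Ranger 6.1.2 and Partek; what each did is not stated there. Genome build, annotation and earlier filters are not given in the sources used here. The most common value above 0 in a cell was taken as 1 UMI, and between 99.95% and 99.96% of values then came out whole within 0.05. A cell was kept if it had 500 genes or more and no more than 20% mitochondrial counts, and doublets were neither called nor removed. Library totals ran from 43960997 to 68222672 UMIs.

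The mean CPM over cells was compared as log2 ratios with a pseudocount of 5 CPM, over genes that reached 20 CPM in 1 or both of the libraries compared. UMI sums have exact Poisson intervals, their ratios exact conditional binomial ones and shares exact binomial (Clopper-Pearson) ones. Cells were thinned with seed 1. Intervals treat UMIs as independent molecules. Genes were named by rule: Car2 and Car3, the 8 highest and 4 lowest by mean r with each, the state markers, the carbonic anhydrase family, and up to 4 members of each list with the largest ratios. The Mki67 and Pax7 splits and the values within Mylpf-high cells were chosen after values were seen. The members and lists were chosen with earlier results of these data known. Within the last 500 bases of GENCODE transcripts, 0% of Car2 and 0.637% of Car3 30-base words occurred in other genes, so reads shared with other genes are few by this measure. Python 3.11.15, numpy 2.4.6, pandas 2.3.3, scipy 1.17.1 and matplotlib 3.10.9 were used, and the steps were tested on simulated data.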

Additional observations from a re-analysis of the deposited data

Results flagged for a closer look

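Over whole libraries Car3 differed between stiff and soft substrate in opposite directions at the 2 ages. The log2 ratio, stiff over soft, was 0.29 in aged cells and -0.13 in young cells. At each age the direction also changed between deciles of Mylpf, and the part of single cells in this was not tested. The difference between the ages was not tested, since each value compares 1 library with 1 library.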

How the results depend on the processing

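Over whole libraries Car2 passed 1.5-fold in none of the 4 comparisons and Car3 only in aged against young cells, where every alternative run kept it at least 2 times lower in the aged. No paired analysis was possible because each group has 1 library. Values are log2 ratios, and the cause of each shift was not tested. Car3, aged over young, over whole libraries on stiff (-1.77) was -1.85 from summed UMIs, -1.64 with a pseudocount of 20, -1.66 with median-of-ratios scaling, -1.86 without the top 1% of cells, -2.36 with equal Mylpf deciles, -2.22 with equal Myog quintiles and -1.72 after thinning. On soft (-2.19) it was -2.38 from summed UMIs, -2.24 and -2.02 with pseudocounts of 1 and 20, -2.47 without cells under 1% mitochondrial counts, -2.09 with median-of-ratios scaling, -2.48 without the top 1%, -2.69 with equal Mylpf deciles and -2.57 with equal Myog quintiles. Within Mylpf-high cells on stiff (-2.43) it was -2.31 with a pseudocount of 20, -2.32 with median-of-ratios scaling and -2.59 without the top 1%. Within them on soft (-2.88) it was -3.05 from summed UMIs, -2.74 with a pseudocount of 20, -3.22 without cells under 1% mitochondrial counts, -2.78 with median-of-ratios scaling and -3.34 without the top 1%. Leaving out the 5% of cells with most UMIs, chosen after seeing the data, gave -2.10 on soft over whole libraries, -2.80 on soft within Mylpf-high cells and -0.068 for Car3 in young cells, stiff over soft.

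Car2, aged over young, on stiff (0.11) was -0.043 from summed UMIs, 0.21 with median-of-ratios scaling and 0.45 with equal Mylpf deciles. On soft (0.07) it was -0.11 from summed UMIs, 0.16 with median-of-ratios scaling, 0.36 with equal Mylpf deciles and -0.077 after thinning. Relative to that scaling, CPM shifts every aged over young ratio by -0.11 on stiff and -0.10 on soft. Car2, stiff over soft, in aged cells (-0.15) was -0.027 with equal Mylpf deciles, 0.030 with equal Myog quintiles and 0.043 after thinning. Car3, stiff over soft, in aged cells (0.29) was 0.56 without cells under 1% mitochondrial counts, 0.55 without the top 1%, 0.12 with equal Mylpf deciles and 0.20 with equal Myog quintiles, and in young cells (-0.13) it was -0.24 from summed UMIs, -0.10 with median-of-ratios scaling, -0.077 without the top 1% and -0.21 with equal Mylpf deciles.

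Counts of genes moved with the filter. At least 1.5 times lower in aged cells were 737 genes on stiff (1129 with no filter, 410 at 50 CPM) and 655 on soft (1003 and 351). At least 2 times lower were 229 on stiff (129 at 50 CPM) and 170 on soft (92), and at least 2 times higher on soft 45 (69 with a pseudocount of 1). On stiff against soft, 1.5 times lower were 5 genes in aged cells (9 with no filter, 2 at 50 CPM, 9 with a pseudocount of 1) and 9 in young cells (15 with no filter, 5 at 50 CPM). There, 1 gene was 1.5 times higher in young cells (5 with no filter, 0 at 50 CPM), and 2 times lower were 0 in aged (1 with a pseudocount of 1) and 2 in young cells (4). With quintiles of Mylpf in place of deciles, Car2 was highest in quintile 2, and cuts on thinned cells left its peak in decile 4. Of the 8 genes closest by Pearson r, 6 for Car2 and 5 for Car3 were also closest by Spearman's rho. Shares of cells with Car2 or Car3 depend on depth: thinned to 5000 UMIs they were 12.0 to 14.6% for Car2 and 13.2 to 26.6% for Car3.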

Other observations

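Car8, a relative of the carbonic anhydrases that lacks enzyme activity, was nearly absent but uneven by age, with 2 UMIs in aged stiff, 9 in aged soft, 33 in young stiff and 35 in young soft cells. Within Mylpf-high cells the mean of Car3 was higher where no UMI of Ckm, the muscle creatine kinase, was found. Without Ckm it was at 145.1 CPM in aged stiff, 169.1 CPM in aged soft, 871.6 CPM in young stiff and 1029 CPM in young soft. With Ckm it was at 134.3 CPM in aged stiff, 96.7 CPM in aged soft, 655.1 CPM in young stiff and 748.1 CPM in young soft. The unthinned share of cells with Car3 did not follow in the aged libraries. Without and with Ckm it was 40.3% and 39.3% in aged stiff and 33.2% and 35.9% in aged soft. In the young libraries it was 65.2% and 57.5% on stiff and 73.4% and 55.7% on soft.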
